A study of Zea mays with 20 samples.

Results

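Beta-tubulin is one of the 2 proteins whose paired units build the microtubule, and maize makes it from a family of genes. The family was taken as every probe set that the array's platform table assigns to a gene whose RefSeq symbol or synonym is tub or TUBB followed by a number. A probe set is a group of short probes read together as 1 value. The rule gave 10 probe sets of 6 genes out of 17555 maize probe sets, and all 10 exceeded a deposited log2 value of 5 on at least 2 arrays, as did 11033 maize probe sets in all. TUBB2, tub3, tub4 and tub7 had 1 probe set each, tub5 had 2 and tub6 had 4. Of those of tub6, 3 share the number 7750.2 in their IDs and correlated at 0.990 to 0.993 over the 20 arrays. They are not independent measures, and the counts of probe sets below include all 3. The RefSeq table lists 8 genes under the rule, and the other 2, TUB1 on chromosome 1 and TUB8 on chromosome 5, had no probe set assigned to them. A separate entry, tub5, also carries tub8 as a synonym.

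The samples were ear internodes, the stem segment that bears the ear, from 5 recombinant inbred lines bred from the inbreds F288 and F271. The plants grew in an irrigated field without treatment and were taken at emerging tassel and at early silking, when the female flowers show. RIL99 and RIL54 carried the favorable allele at all 4 loci chosen for lignin content and cell wall degradability. RIL39 and RIL71 carried the unfavorable allele at the locus in chromosome bin 6.06, and RIL118 the unfavorable allele at the locus in bin 9.02. Each of the 10 groups of line and stage had 2 arrays, so 20 arrays were used, 10 for each stage. The labels do not say whether the 2 arrays of a group came from separate plants, so p-values measure only the spread between arrays, which may be technical. The bin 9.02 allele was present in 1 line, so allele and line cannot be told apart there, and each class of lines also differs elsewhere in the genome.

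Microtubules are hollow polymers of alpha- and beta-tubulin, and new ones start from complexes that contain gamma-tubulin. In growing plant cells the microtubules under the plasma membrane guide the cellulose synthase complexes, so that they help to set the direction in which cellulose is laid down and the cell extends. In cells that make a thick secondary wall, such as vessels and fibres of the stem, they mark where that wall is deposited. Kinesins are motor proteins that move along microtubules.

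Values are deposited log2 expression values, and a difference is in log2 units. The level of one probe set was not set against that of another, since each has its own probes. RefSeq, on the assembly Zm-B73-REFERENCE-NAM-5.0, places TUBB2 (gene 542380) on chromosome 8, tub3 (542416) on chromosome 1, tub4 (542417) on chromosome 5, tub5 (542418) and tub6 (542239) on chromosome 3, and tub7 (542705) on chromosome 9. Members of the family are similar in sequence. The probe sequences were not used here, and whether a probe set also reads a related tubulin was not tested.

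Across the series, the 2 arrays of a group correlated at between 0.934 (RIL118 at emerging tassel) and 0.994 (RIL39 at emerging tassel) over the tested probe sets. The labelled RNA amount was 113.41 to 417.25 ng for the tassel arrays and 53.001 to 201.72 ng for the silking arrays, with medians of 137.9 and 70.9 ng, and 8 of the 10 silking arrays had less than every tassel array. The median stage change of all tested probe sets was 0.12. In limma's fit 26.8% of them were lower at early silking at an adjusted p under 0.05, and 67.7% differed in either direction. All 5 measured markers of wall-forming stem fell, with a summed log2 level of 15.20 to 15.89 at emerging tassel and 13.46 to 15.14 at early silking. None of the 6 leaf photosynthesis markers passed in limma's fit (smallest adjusted p 0.0757, summed levels 14.90 to 16.17, then 14.47 to 16.10). Of 4 meristem markers 3 rose and 1 fell, with summed levels of 10.48 to 11.68 and then 11.20 to 11.84. Of 8 epidermis and cuticle markers 3 were tested and 2 fell (9.47 to 10.59, then 8.81 to 9.98). Of 5 kernel markers 4 were under the level filter and the other fell (summed levels 7.20 to 9.24, then 6.53 to 9.20). The part of tissue makeup in the results below was not tested, and in whole internodes fewer cells of a type cannot be told apart from less RNA per cell.

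Between emerging tassel and early silking, transcripts of 5 of the 6 beta-tubulin genes fell, and tub7 did not pass the test. In limma's fit of 10 group means, 9 of the 10 probe sets were lower at early silking at an adjusted p under 0.05, and none was higher. Over all tested probe sets 26.8% were called lower and 67.7% were called in either direction. The median change of the 10 probe sets was -1.58, beside 0.12 for all tested probe sets. With RNA amount as a covariate, which moved with stage, the same 9 were called, with changes of -3.66 to -1.23. On 6 of the 10 probe sets every silking array was below every tassel array, which held for 4.22% of all tested probe sets. On 8 of the 10 the stages did not overlap within any of the 5 lines, against 9.36% of all tested probe sets.

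**Figure D1:**
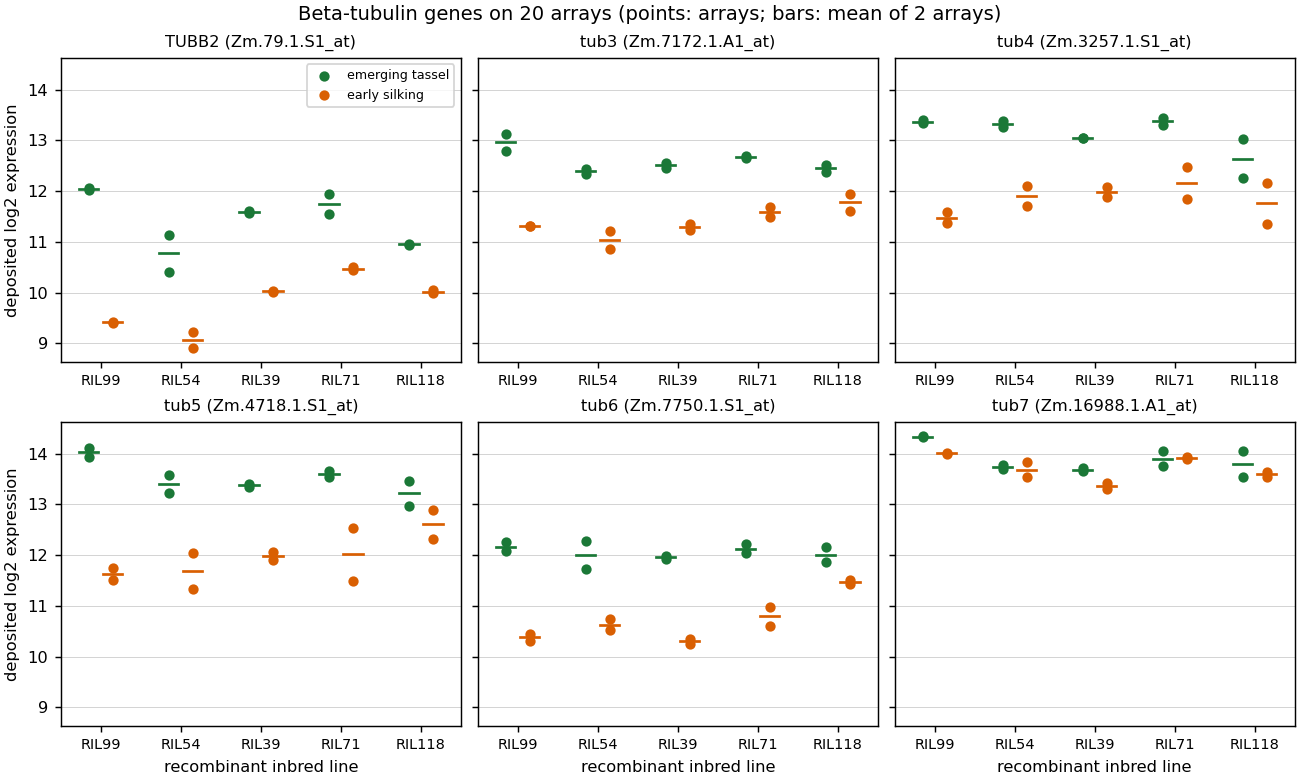
Deposited log2 expression (vertical axis) of the 6 beta-tubulin genes, each by its brightest probe set, in the 5 lines (horizontal axis) at emerging tassel (green) and early silking (orange). Points are arrays and bars are means of 2 arrays; in 5 genes the orange points lie below the green ones of the same line, and in tub7 they overlap in 3 of the 5 lines.

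TUBB2 (Zm.79.1.S1_at) had the largest F value for differences between lines of the 10 probe sets at each stage. At emerging tassel the replicate arrays read 12.02 and 12.06 in RIL99, 10.41 and 11.14 in RIL54, 11.60 and 11.57 in RIL39, 11.54 and 11.94 in RIL71, and 10.95 and 10.96 in RIL118. At early silking they read 9.42 and 9.40 in RIL99, 8.91 and 9.23 in RIL54, 10.02 and 10.04 in RIL39, 10.50 and 10.44 in RIL71, and 9.99 and 10.04 in RIL118. The stages were apart within every line, but RIL71 at silking was above the lower RIL54 array at emerging tassel. Over the 5 lines TUBB2 fell by 1.62 (SE 0.09, limma adjusted p 8.44e-08), a 3.08-fold lower level.

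At emerging tassel tub3 (Zm.7172.1.A1_at) read 12.78 and 13.13 in RIL99 and 12.34 and 12.44 in RIL54. It read 12.46 and 12.55 in RIL39, 12.66 and 12.69 in RIL71, and 12.37 and 12.52 in RIL118. The RIL99 arrays were above those of all other lines, but the difference among lines was not called (limma's F test, adjusted p 0.0769). At early silking the arrays read 11.31 and 11.32 in RIL99, 10.86 and 11.22 in RIL54, 11.35 and 11.24 in RIL39, 11.69 and 11.49 in RIL71, and 11.94 and 11.61 in RIL118. The highest silking array, of RIL118, was below the lowest tassel array, of RIL54. The change over the 5 lines was -1.19 (SE 0.08, limma adjusted p 1.42e-07).

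For tub4 (Zm.3257.1.S1_at) the tassel arrays ran from 12.26 to 13.44 with a median of 13.29, and the silking arrays from 11.36 to 12.48 with a median of 11.87. At emerging tassel the replicates of RIL118 were the farthest apart, 12.26 and 13.02, and the lower one was under the highest silking array, which was 12.48 in RIL71. The change was -1.29 (SE 0.13, limma adjusted p 3.51e-06).

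For tub5, the brighter probe set Zm.4718.1.S1_at separated the stages on all 20 arrays, from 12.97 to 14.11 at emerging tassel and from 11.33 to 12.88 at early silking. Among tassel arrays those of RIL99 were highest, at 14.11 and 13.94, and among silking arrays the highest was in RIL118, where the pair read 12.88 and 12.32. The change was -1.54 (SE 0.15, limma adjusted p 2.28e-06), a 2.91-fold lower level.

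The brightest tub6 probe set, Zm.7750.1.S1_at, was nearly level among the lines at emerging tassel, with all 10 arrays between 11.72 and 12.27. At early silking the arrays read 10.44 and 10.31 in RIL99, 10.51 and 10.73 in RIL54, 10.25 and 10.35 in RIL39, 10.98 and 10.60 in RIL71, and 11.50 and 11.42 in RIL118. RIL118 was above all other lines at that stage, and still below every tassel array. The change over the lines was -1.34 (SE 0.09, limma adjusted p 1.63e-07).

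tub7 (Zm.16988.1.A1_at) stood apart from the other 5 genes. Its tassel arrays ran from 13.54 to 14.35 with a median of 13.76, and its silking arrays from 13.31 to 14.01 with a median of 13.74, so that the stages overlapped. The stage difference was -0.18 (SE 0.08, 95% interval -0.34 to -0.014), which missed the threshold in limma's fit (adjusted p 0.0526). It passed with no level filter (0.0472), with median centring (0.0176) and with a trended robust spread (0.0326). It also passed without RIL71 tassel replicate 1, without RIL118 tassel replicate 1 or without RIL54 silking replicate 2 (adjusted p 0.00883 to 0.0306).

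Whether the brightest probe sets of the genes fell by different amounts was tested on the difference between them on each array. The stage was permuted among the 4 arrays of each line (exact two-sided permutation test, 7776 arrangements, smallest possible p 0.000257). A gene name here stands for its brightest probe set. The dimmer probe sets changed further than any of these, by -3.11 in tub5 and by -2.67 to -3.08 in tub6. The differences may therefore not hold for the genes as such. The 15 pairs of brightest probe sets were added after the data had been seen, and 8 passed after adjustment over the 15. The share that would pass among pairs of all tested probe sets was not counted. All 5 pairs with tub7 passed, and they share its 1 probe set, so they are not independent. TUBB2 moved by -1.44 relative to tub7, tub5 by -1.37, tub6 by -1.16, tub4 by -1.12 and tub3 by -1.02, each in the same direction in 5 of 5 lines (exact permutation test, adjusted p 0.00154 for tub6 and 0.000965 for the others). Among the other 10 pairs 3 passed in the exact permutation test. The stage change of TUBB2 minus that of tub3 was -0.43 (adjusted p 0.0045, 5 of 5 lines). tub5 fell further than tub3 by 0.35 (adjusted p 0.0226) and further than tub4 by 0.25 (adjusted p 0.0429), each in 4 of 5 lines with RIL118 the exception. The call for tub5 against tub3 was lost on leaving out any of 5 arrays, which were RIL71 tassel replicates 1 and 2, RIL54 tassel replicate 2, RIL118 tassel replicate 2 and RIL99 silking replicate 2 (adjusted p 0.0502 to 0.0639). That for tub5 against tub4 was lost on leaving out any of 10 arrays: both RIL99 replicates at each stage, both RIL71 tassel replicates, RIL54 tassel replicate 2, RIL54 silking replicate 1 and replicate 1 of RIL118 at each stage (0.0535 to 0.0986). TUBB2 came to differ from tub4 without any of 4 arrays (RIL54 tassel replicate 1, RIL118 tassel replicate 2, RIL71 silking replicate 2, RIL118 silking replicate 2, adjusted p 0.027 to 0.0429), and from tub6 without any of 5 (RIL54 tassel replicate 1, RIL71 tassel replicate 1 and silking replicate 2, and tassel replicate 2 and silking replicate 1 of RIL39, adjusted p 0.0165 to 0.0478).

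The 4 tub6 probe sets agreed in direction but not in the size of the fall. The 3 dimmer tub6 probe sets, which share the number 7750.2 and are not independent of each other, fell further than Zm.7750.1.S1_at. Zm.7750.2.S1_a_at ran from 9.93 to 10.97 at emerging tassel and from 6.41 to 8.82 at early silking, a change of -2.67 (SE 0.17, limma adjusted p 1.75e-07). Zm.7750.2.S1_x_at ran from 9.72 to 10.82 and then from 5.75 to 8.78, a change of -2.85 (SE 0.20, limma adjusted p 2.47e-07). Zm.7750.2.S1_at ran from 9.27 to 10.45 and then from 4.82 to 8.26, a change of -3.08 (SE 0.23, limma adjusted p 3.93e-07), or 8.46-fold beside 2.53-fold for Zm.7750.1.S1_at. On each of these 3 probe sets the lowest arrays were the silking pair of RIL99, and no silking array reached the lowest tassel array. One of the 10 silking arrays of Zm.7750.2.S1_at, RIL99 replicate 2 at 4.82, was under the filter value of 5.

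**Figure D2:**
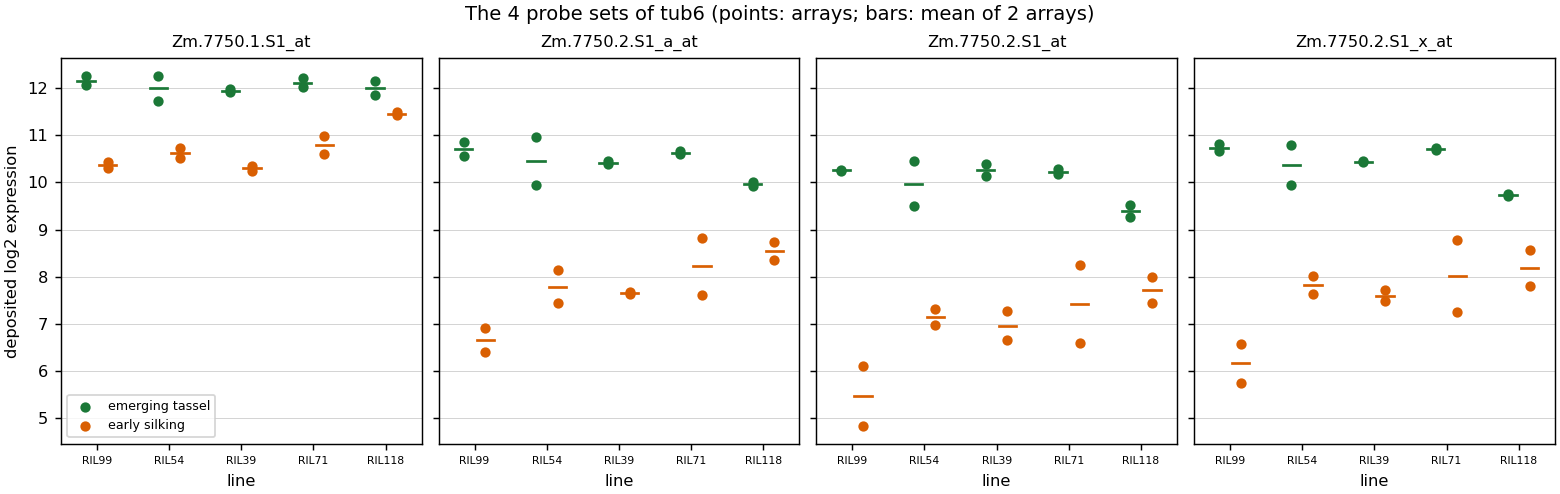
Deposited log2 expression (vertical axis) of the 4 probe sets of tub6 in the 5 lines (horizontal axis) at emerging tassel (green) and early silking (orange); points are arrays and bars are means of 2 arrays. The distance between stages is smallest for Zm.7750.1.S1_at, and on the other 3 probe sets the RIL99 silking arrays, 4.82 to 6.90, are the lowest.

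On every line the dimmer tub6 probe sets moved further than Zm.7750.1.S1_at. Against Zm.7750.2.S1_a_at the stage changes differed by 1.33, from 0.89 in RIL118 to 2.27 in RIL99. Against Zm.7750.2.S1_x_at they differed by 1.51 and against Zm.7750.2.S1_at by 1.74, and for each of the 3 the exact permutation test gave the smallest p possible, 0.000257 (adjusted p 0.0006 over the 7 pairs of probe sets of a gene). Among the 3 themselves the differences were smaller. Zm.7750.2.S1_at fell 0.41 further than Zm.7750.2.S1_a_at (exact permutation test, adjusted p 0.0009) and 0.23 further than Zm.7750.2.S1_x_at (adjusted p 0.0202), in 5 of 5 lines each. The last call was lost without either RIL39 tassel array or RIL99 tassel replicate 2 (adjusted p 0.0564 to 0.112). Zm.7750.2.S1_a_at and Zm.7750.2.S1_x_at differed by 0.18, in 4 of 5 lines, which missed the threshold (exact permutation test, adjusted p 0.0548). That difference passed without any of 5 arrays (RIL54 tassel replicate 2 and silking replicate 1 of RIL54, RIL39, RIL71 and RIL118, adjusted p 0.0237 to 0.0408). Of the 6 tub6 pairs 5 passed, and the share among probe set pairs of other genes was not counted.

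The dimmer tub5 probe set, Zm.4718.2.S1_a_at, varied most between replicates. Its tassel arrays read 10.90 and 9.79 in RIL99, 8.34 and 8.48 in RIL54, 7.14 and 6.04 in RIL39, 8.71 and 9.48 in RIL71, and 6.28 and 7.48 in RIL118. Its silking arrays read 3.25 and 5.26 in RIL99, 3.20 and 7.58 in RIL54, 6.16 and 2.56 in RIL39, 6.25 and 6.64 in RIL71, and 6.62 and 4.02 in RIL118. Only 16 of the 20 arrays were above 5, the 4 below it were all silking arrays, and the stages overlapped in RIL39 and RIL118. Of the values nearest to 5, 5.26 was above it and 4.02 below it. The change was -3.11 (SE 0.62, limma adjusted p 0.000732). Its size rests on values under the filter value: with the 4 low values raised to 5, a setting added after the data had been seen, it was -2.41. As deposited, it exceeded that of Zm.4718.1.S1_at by 1.57 in the exact permutation test (adjusted p 0.0273, 5 of 5 lines), with 3.69 in RIL99 and 0.84 to 1.31 in the other lines. With the low values raised to 5 the difference was 0.87 and was not called (exact permutation test, adjusted p 0.0548). The pooled replicate SD of the difference was 1.41, and the call was also lost without any of 7 arrays, both RIL99 tassel arrays, replicate 1 of RIL54 at each stage, the first tassel and second silking array of RIL39, and the second silking array of RIL118 (adjusted p 0.0513 to 0.078).

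Line by line, 49 of the 50 combinations of probe set and line were lower at early silking and 37 passed in limma's fit. The 50 include the 3 related tub6 probe sets in each line. The share of all such combinations that were lower was not counted. In RIL99, 9 of the 10 probe sets were called lower, where 17.9% of all tested probe sets were. In RIL54, 8 were called lower (14.9% of all), in RIL39 8 (11.4%) and in RIL71 8 (13.3%). tub7 passed in none of the 5 lines (smallest limma adjusted p 0.128), and the dimmer tub5 probe set in RIL99 alone. In RIL118, 4 probe sets of 3 genes were called lower, where 5.1% of all tested probe sets were. Of the single-line calls outside RIL118, those of tub4 in RIL39 and RIL71 and of the brighter tub5 probe set in RIL39 rested on single arrays. tub4 in RIL39 was lost without any of that line's 4 arrays (adjusted p 0.0568 to 0.0977). tub4 in RIL71 was lost without tassel replicate 1 or silking replicate 2 (0.0547 to 0.0962). tub5 in RIL39 was lost without either tassel array or silking replicate 2 (0.0515 to 0.0589). Without RIL54 silking replicate 2, the dimmer tub5 probe set passed in RIL54 too (adjusted p 0.0138).

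**Figure D3:**
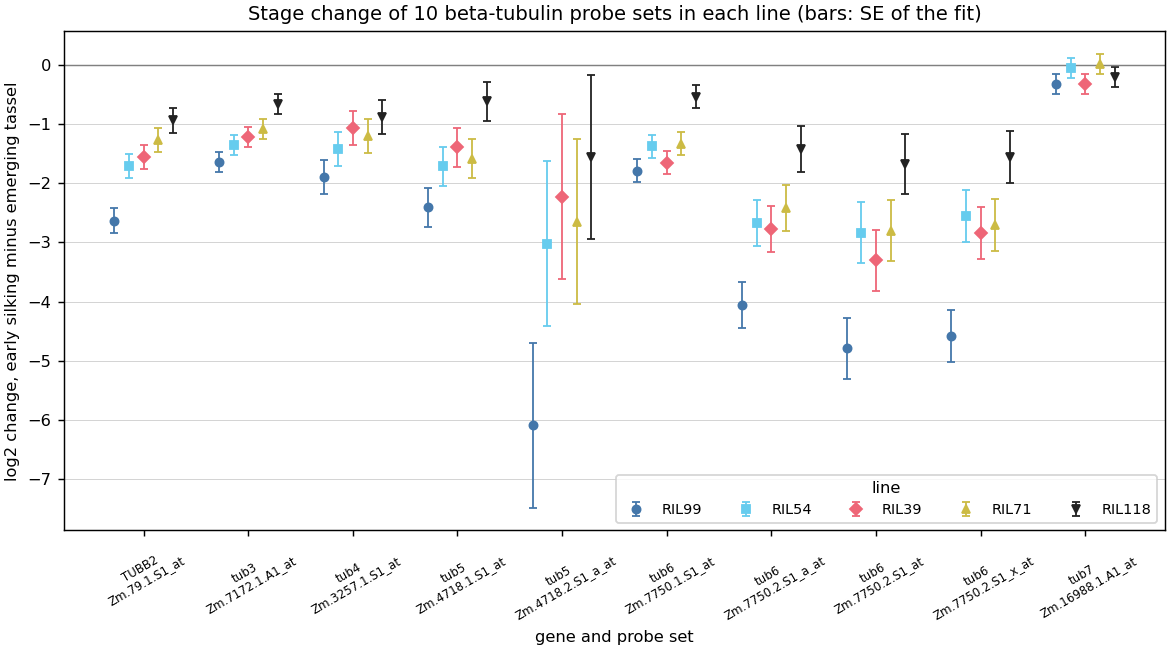
Change in log2 expression from emerging tassel to early silking (vertical axis) of the 10 beta-tubulin probe sets (horizontal axis), with 1 symbol per line and bars for the standard error of the fit. RIL99 has the lowest value on all 10 probe sets and RIL118 the one nearest 0 on 9, while tub7 stays between -0.33 and 0.016.

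The fall was largest in RIL99 on all 10 probe sets and smallest in RIL118 on 9 of them. Over all tested probe sets the share called lower was also highest in RIL99, at 17.9%, and lowest in RIL118, at 5.1%. How many of all tested probe sets had these lines at the extremes was not counted. TUBB2 changed by -2.63 (SE 0.21) in RIL99, -1.71 in RIL54, -1.56 in RIL39, -1.27 in RIL71 and -0.94 in RIL118. TUBB2 was the 1 probe set of the 10 with a stage by line interaction in limma's moderated F test (adjusted p 0.0265), where 6.15% of all tested probe sets had one. This call was lost without RIL118 (adjusted p 0.0938) and without any of 8 arrays: the 4 of RIL99, the 2 tassel arrays of RIL39 and the 2 silking arrays of RIL118 (adjusted p 0.053 to 0.0968). The 4 tub6 probe sets had interaction p-values of 0.0664 to 0.106, and all 4 passed without some single array (adjusted p 0.0208 to 0.0459). For Zm.7750.1.S1_at this was either RIL54 tassel array, for Zm.7750.2.S1_a_at either of those or either RIL71 silking array, for Zm.7750.2.S1_x_at either RIL71 silking array and for Zm.7750.2.S1_at RIL71 silking replicate 2.

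The stage change of RIL118 was then set against the mean of RIL99 and RIL54, a contrast added after the data had been seen. The fall was called smaller in RIL118 for 6 of the 10 probe sets, from 4 genes, where 3.3% of all tested probe sets differed in this direction. The 6 include the related Zm.7750.2.S1_a_at and Zm.7750.2.S1_x_at. RIL99, in the mean of the favorable lines, had the largest fall on all 10 probe sets, as in TUBB2 with -2.63, beside -1.71 in RIL54 and -0.94 in RIL118. The part of RIL99 in the difference was not tested. TUBB2 fell less by 1.23 (SE 0.25, limma adjusted p 0.0161) and the brightest tub6 probe set by 1.04 (SE 0.24, adjusted p 0.0254). tub3 fell less by 0.83 (adjusted p 0.034), Zm.7750.2.S1_a_at of tub6 by 1.94 (0.0329), Zm.7750.2.S1_x_at of tub6 by 2.01 (0.0445) and the brighter tub5 probe set by 1.44 (0.0481). For tub7 the difference was -0.0066 with a 95% interval of -0.46 to 0.44. RIL118 at emerging tassel was also the group whose replicate arrays agreed least over all tested probe sets. Their correlation, 0.934, was below the highest one with an array of another group, 0.939, which held for no other of the 10 groups, and the part of that in the difference was not tested.

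Single arrays decided most of these calls. The TUBB2 call was lost without RIL118 silking replicate 1 (adjusted p 0.0673). The call for Zm.7750.1.S1_at was lost without any of 6 arrays: replicate 1 of RIL99 at tassel, replicate 2 of RIL99 at silking, silking replicate 1 of RIL54, RIL118 tassel replicate 2 and both RIL118 silking arrays (0.053 to 0.111). The tub3 call was lost without any of 9 arrays (0.0544 to 0.167): both RIL39 tassel arrays, replicate 1 of RIL118 at each stage, RIL99 tassel replicate 2, RIL54 tassel replicate 2, both RIL99 silking arrays and RIL54 silking replicate 1. That for Zm.7750.2.S1_a_at was lost without any of 10 (0.0503 to 0.144): all 4 RIL118 arrays, both RIL39 tassel arrays, RIL99 tassel replicate 1, RIL99 silking replicate 2, RIL54 tassel replicate 2 and RIL54 silking replicate 1. That for Zm.7750.2.S1_x_at was lost without any of 13 (0.0508 to 0.199), the 10 just named and RIL99 tassel replicate 2 and both RIL39 silking arrays. The tub5 call was lost without any of 16 of the 20 arrays (0.0525 to 0.212), and was kept only without RIL54 tassel replicate 1, RIL54 silking replicate 2 or a RIL71 silking array. With RNA amount as a covariate only TUBB2 and Zm.7750.1.S1_at passed, and with no level filter those 2 and tub3. Quantile normalization ended the calls of tub5 (0.0573) and Zm.7750.2.S1_x_at (0.0524), and median centring that of tub5 (0.0502). Zm.7750.2.S1_at, at an adjusted p of 0.0567, passed without RIL54 tassel replicate 1, RIL99 silking replicate 1 or either RIL71 silking array (0.0313 to 0.0456).

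Within RIL118 itself, TUBB2 changed by -0.94 (SE 0.21, limma adjusted p 0.0153), tub3 by -0.67 (0.0258), and the tub6 probe sets Zm.7750.2.S1_a_at by -1.43 (0.0355) and Zm.7750.2.S1_x_at by -1.56 (0.0404). Each of these calls was lost without some single array of RIL118, which leaves 1 array in a group, assumed to vary as the others do. Those of TUBB2 and tub3 were lost without any of 3 of its 4 arrays, the exceptions being tassel replicate 2 and silking replicate 1 (adjusted p 0.0604 to 0.0869 and 0.0623 to 0.207). Those of the 2 tub6 probe sets were lost without any of the 4, and also without either RIL39 tassel array; Zm.7750.2.S1_x_at was lost too without a RIL99 tassel or a RIL39 silking array (0.053 to 0.208 and 0.0501 to 0.269). Both tub6 calls were also lost with no level filter (0.0601 and 0.0719) and with RNA amount as a covariate (0.0784 and 0.071). The brightest tub6 probe set changed by -0.54 (adjusted p 0.0889), the brighter tub5 one by -0.62 (0.242) and tub4 by -0.88 (0.0693). Leaving out 1 array brought in tub4 (RIL118 tassel or silking replicate 1, 0.0346 to 0.0435), Zm.7750.1.S1_at (either RIL54 tassel array, 0.0474) and Zm.7750.2.S1_at, at 0.0534 in the full fit (either RIL54 tassel array, or any RIL99 or RIL71 silking array, 0.0266 to 0.0469).

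For the stage change of the 2 lines with the unfavorable bin 6.06 allele against that of the favorable lines, also added after the data had been seen, 0 of the 10 probe sets passed in limma's fit, where 0.807% of all tested probe sets did. At an unadjusted p under 0.05 there was 1, TUBB2, with a smaller fall by 0.75 (SE 0.21, adjusted p 0.12, 95% interval 0.31 to 1.20). It passed without RIL54 tassel replicate 1 (adjusted p 0.0125). The intervals of the others included 0, as in tub6 (Zm.7750.1.S1_at), where the difference was 0.086 with an interval of -0.33 to 0.50.

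Differences between lines within a stage were called for TUBB2 at both stages, for tub7 at emerging tassel, and for tub3 and tub6 at early silking. At emerging tassel 2 of the 10 probe sets differed among the lines in limma's moderated F test, TUBB2 (adjusted p 0.00187) and tub7 (0.0425). Over all tested probe sets a larger share, 36.7%, did. At early silking 6 differed, where 24.2% of all did. They were TUBB2 (0.00178), tub3 (0.0347) and the 4 tub6 probe sets Zm.7750.1.S1_at (0.00407), Zm.7750.2.S1_a_at (0.0221), Zm.7750.2.S1_x_at (0.0237) and Zm.7750.2.S1_at (0.0347).

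In the order of the lines for TUBB2 at emerging tassel, RIL99 was above RIL71, RIL71 and RIL39 overlapped, RIL39 was above RIL118, and RIL118 overlapped with RIL54. At early silking RIL71 was highest, RIL39 and RIL118 overlapped, and RIL99 and then RIL54 were lower without overlap. RIL99 therefore went from the highest line to the last but one. For the brightest tub6 probe set at early silking RIL118 was above RIL71, whose 2 arrays were separated from RIL118 by more than they differed from each other.

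The TUBB2 line differences were called at both stages on leaving out each of the 20 arrays in turn. The tub7 call at emerging tassel was lost without any of 13 arrays (adjusted p 0.0565 to 0.188): all arrays of RIL99 and RIL39, both silking arrays of RIL71 and RIL118, and RIL54 tassel replicate 2. It was also lost with RNA amount as a covariate (0.0803). At early silking the tub3 call was lost without any of 9 arrays (0.0527 to 0.134): all arrays of RIL39, both RIL99 silking arrays, and silking replicate 1 of RIL54, RIL71 and RIL118. Zm.7750.2.S1_a_at was lost without any of 3 silking arrays, both of RIL99 and RIL118 replicate 1 (0.0534 to 0.142). Zm.7750.2.S1_x_at was lost without RIL99 silking replicate 2 (0.231). Zm.7750.2.S1_at was lost without any of 7 arrays (0.0518 to 0.289): the tassel arrays of RIL99 and RIL39, RIL99 silking replicate 2 and both RIL118 silking arrays. Zm.7750.1.S1_at was called without each array, but not without the whole of RIL118 (0.291). Leaving out RIL118 also ended the calls of tub3 (0.164), Zm.7750.2.S1_a_at (0.0964) and Zm.7750.2.S1_at (0.0914). With RNA amount as a covariate tub3 (0.051) and Zm.7750.2.S1_at (0.0641) were lost, and with no level filter Zm.7750.2.S1_at (0.075) and Zm.7750.2.S1_x_at (0.0523). The silking difference of tub7 passed with quantile normalization (limma's F test, adjusted p 0.0286), a trended robust spread (0.0332) and without RIL118 (0.0367). tub7, at 0.062 in the full fit, passed without either RIL118 tassel array (0.0236).

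Over both stages, TUBB2 was higher in the 2 lines with the unfavorable bin 6.06 allele than in the favorable lines by 0.63 (SE 0.10, limma adjusted p 0.000856). It was the 1 called of the 10 probe sets, and over all tested probe sets a similar share, 9.91%, was called higher. The call held on leaving out each array in turn, with differences of 0.54 to 0.72. Its p-value measures the spread between arrays, not between lines. The favorable lines themselves differed by -0.81 on TUBB2 (RIL54 minus RIL99). At early silking both bin 6.06 lines were above both favorable lines, but at emerging tassel RIL99 was above all other lines, so the classes overlapped. Without 1 array, calls were added for tub7 (RIL118 tassel replicate 1 or 2, adjusted p 0.0401) and the tub6 probe sets Zm.7750.2.S1_at and Zm.7750.2.S1_x_at (RIL71 silking replicate 2, 0.0435 and 0.0347).

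Between RIL54 and RIL99 over both stages, 3 of the 10 probe sets were called, all lower in RIL54, as were 7.98% of all tested probe sets. The differences were -0.81 for TUBB2 (SE 0.15, limma adjusted p 0.00234), -0.42 for tub3 (SE 0.12, 0.0305) and -0.46 for tub7 (SE 0.12, 0.0213). The TUBB2 call held without each array, with differences of -0.99 to -0.62. The tub3 call was lost without RIL99 tassel replicate 2, either RIL54 tassel array, either RIL99 silking array or RIL54 silking replicate 1 (0.0516 to 0.125), and with RNA amount as a covariate (0.0716). The tub7 call was lost without any RIL99 array, RIL54 tassel replicate 2 or RIL54 silking replicate 1 (0.0562 to 0.0789).

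In the mean of both stages RIL118 was called above the favorable lines on 1 of the 10 probe sets, Zm.7750.1.S1_at of tub6, by 0.44 (SE 0.12, limma adjusted p 0.0201). Over all tested probe sets a similar share, 11.7%, was called higher. At emerging tassel the RIL118 arrays, 11.86 and 12.15, lay within the range of the favorable lines, 11.72 to 12.27. At early silking the mean was 11.46 in RIL118, 10.38 in RIL99 and 10.62 in RIL54, so that the lines were apart at silking alone. The other 3 tub6 probe sets differed by 0.18 to 0.36 with intervals that included 0. The call was lost without RIL118 tassel replicate 1 or either of its silking arrays (0.0547 to 0.105), and tub7 passed without RIL118 tassel replicate 2 (0.0173). In the mean of both stages RIL71 was above RIL39 on tub7 by 0.39 (SE 0.12, limma adjusted p 0.0433), the 1 call of 10, where a similar share of all, 8.09%, was called higher. That call was lost without any of 13 arrays, which were all 4 of RIL39 and of RIL99, tassel replicate 2 of RIL71, and both silking arrays of RIL71 and RIL118 (0.055 to 0.137), with median centring (0.0507) and with RNA amount as a covariate (0.0758). The dimmer tub5 probe set passed without RIL39 silking replicate 1 (0.0454).

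The other tubulins are described for comparison of counts only. Over all tested probe sets 26.8% were called lower in the same fit, and 67.7% were called in either direction. Of 4 alpha-tubulin genes 3 fell, with changes of -1.17 in TUA1 (SE 0.24, limma adjusted p 0.000862), -0.65 in tua6 (SE 0.07, 8.54e-06) and -0.46 in tua4 (SE 0.07, 0.000134), while tua5 stood at 13.01 at emerging tassel and 13.00 at early silking (adjusted p 0.962). Both gamma-tubulin genes fell, with changes of -1.19 in TUBG2 (SE 0.13, 7.13e-06) and -0.50 in tubg1 (SE 0.06, 2.31e-05). Of 8 kinesin genes 4 were tested and 3 fell, with changes of -1.43 in krp6, -0.87 in kin15 and -0.82 in KIN9. The median change was -0.55 for the alpha-tubulins, -0.85 for the gamma-tubulins and -0.85 for the kinesins, beside 0.12 for all tested probe sets.

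Among genes of the wall, all 4 of the secondary-wall cellulose list fell, with changes of -2.24 in bk2, a COBRA-like protein of secondary walls, and of -1.98 and -1.83 in the cellulose synthases cesa11 and cesa10. Of 6 primary-wall cellulose synthases 4 fell and 1 rose, the largest changes being -1.71 for cesa8, -1.06 for cesa2 and -0.72 for cesa6. Of 12 expansins, proteins that loosen the growing wall, 8 were tested and all 8 fell, with changes of -5.13 in expA4, -3.97 in expB4 and -2.84 in expB8. The list for actin and profilin matched 5 profilin genes, which encode actin-binding proteins, and no actin gene. Of the 5, 2 were tested and both fell, with changes of -0.23 in PRO4 and -0.14 in prf5. Of 13 cell division genes 7 were tested, and MCM6, a subunit of the replication helicase, rose from 5.04 to 6.05, the linker histone genes his1 and his1a changed by -0.57 and -0.27, and 4 were not called. All of these are from the same limma fit, and the medians were -1.91, -0.55, -2.61, -0.18 and 0.02 in the order given. Beside these counts, 26.8% of all tested probe sets were called lower and 67.7% in either direction.

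Which other genes followed each beta-tubulin most closely was read from Pearson's r over the 20 arrays among 802 other named genes, as a description. The arrays share the stage contrast, so r is high for any pair of genes that fell. For tub5 the 3 closest were the secondary-wall cellulose synthases cesa10 (0.952), cesa11 (0.940) and CesA12 (0.937). Over deviations from the stage means, cesa10 (0.813) and CesA12 (0.780) again led for tub5, followed by OBF1 (0.772), a bZIP factor. tub4 was closest to Bk2L3 (0.958), a COBRA-like gene, then gar2 (0.954) and fae1 (0.936), a fatty acid elongase, and over deviations to Bk2L3 (0.881), CesA-2 (0.789) and gar2 (0.770).

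**Figure D4:**
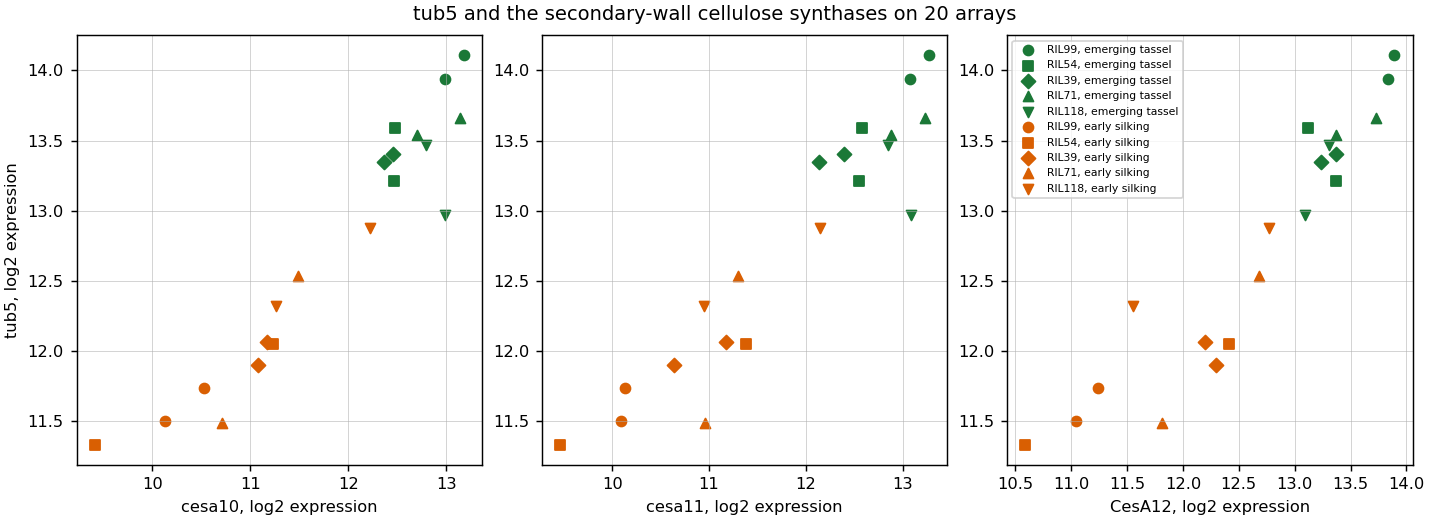
Deposited log2 expression of tub5, probe set Zm.4718.1.S1_at (vertical axis), against the secondary-wall cellulose synthases cesa10, cesa11 and CesA12 (horizontal axes), with 1 point per array, colour for stage and symbol for line. In tub5 the lowest tassel array (green) is at 12.97 and the highest silking array (orange) at 12.88; r over the 20 arrays is 0.952, 0.940 and 0.937.

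IRL (0.947), LOC542505 (0.950) and expB6 (0.952), a beta-expansin, were among the 4 genes closest to tub3. Over deviations from the stage means LOC542505 (0.777) and expB6 (0.903) were among the 3 closest. tub6 was closest to brk1 (0.945), which acts in the assembly of actin filaments, and its next closest genes included LOC541865 (0.941) and the kinesin KIN9 (0.936), and over deviations to csu136(plt) (0.780), brk1 (0.755) and LOC541865 (0.723). TUBB2 was closest to zrp4 (0.943), LOC542505 (0.935), the soluble invertase ivr2 (0.920) and the superoxide dismutase Sod4A (0.918). Over deviations TUBB2 was closest to zrp4 (0.786), LOC542505 (0.755) and Sod4A (0.720). LOC542505 was also among the 4 closest genes of tub4 (0.935) and tub5 (0.934).

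tub7 had another set of neighbours with lower values, GR2b (0.822), PK (0.812), cys2 (0.742) and gpm859 (0.737), and over deviations GR2b (0.823), PK (0.807) and gln2 (0.800), a glutamine synthetase. None of them was among the closest genes of the other 5 members. By the brightest probe set of each gene, r of tub7 with the other 5 beta-tubulins was 0.299 to 0.459, whereas the other 5 correlated with each other at 0.825 to 0.963 over 10 pairs. With all probe sets r was 0.211 to 0.605 for tub7 (9 pairs), highest with the dimmer tub5 probe set, and 0.702 to 0.963 among probe sets of different genes of the other 5 (29 pairs). Probe sets of the same gene correlated at 0.802 to 0.993 over 7 pairs. Over deviations from the stage means the ranges were 0.009 to 0.424 for tub7 by the brightest probe sets and -0.216 to 0.558 by all, 0.138 to 0.810 among the other 5 genes either way, and 0.545 to 0.962 for probe sets of the same gene.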

How the data were processed

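RNA of 20 ear internode samples was measured on Affymetrix maize arrays, 1 sample per array. The deposited values are log2 expression values per probe set made by the authors with GCRMA, per the submitters' processing notes; its version is not given in the sources used here. GCRMA corrects background and normalizes arrays together, so dim probe sets are pulled to a floor and their changes are less exact. The files hold no counts, so the number of arrays limits the precision.

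Control probe sets (179) were left out, and 11033 of 17555 maize probe sets with log2 above 5 on at least 2 arrays were tested. Genes came from the platform table, an old annotation, with names updated through RefSeq; 1452 probe sets had 1 gene. limma 3.58.1 in R 4.3.3 fitted 10 group means with moderated tests and Benjamini-Hochberg adjustment over all tested probe sets, and an adjusted p under 0.05 was called. The fit was tested on simulated data. Differences between probe sets were tested by exact permutation in Python 3.11.15 with scipy 1.17.1. The members, gene lists and tests were chosen with earlier results of these data known. All probe sets of the family are named; of each other list, all tubulins and up to 3 called genes with the largest change; of likeness, the 4 closest genes and the 3 closest over deviations from the stage means, some of which are not reported here for tub3 and tub6. A summed level is the log2 of the summed linear values of a list.

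Alternatives were no filter, a filter at 7, quantile normalization, median centring, RNA amount as a covariate, a replicate block, a trended robust spread, and leaving out RIL118 or each array. Deviations of arrays with the same replicate number had a median correlation of -0.061 over 45 pairs of groups (-0.44 to 0.51, 16 of them above 0.1). The numbers were not used as pairs, and whether some groups shared a block was not tested. No sequences are printed, as none were used here.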

Additional observations from a re-analysis of the deposited data

Results flagged for a closer look

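In tub4 (Zm.3257.1.S1_at), RIL118 replicate 1 at emerging tassel read 12.26, far below the other 9 tassel arrays by the gap test for single outlying values. The test was run on 20 groups (10 probe sets at 2 stages), and chance gives about 1 in 20. TUBB2 differed among lines in its stage change, with a limma interaction p of 0.0265 after adjustment. In the difference of the stage change between RIL118 and the favorable lines, 6 probe sets passed, with a smaller fall in RIL118 by 1.23 for TUBB2, 0.83 for tub3, 1.44 for tub5 (Zm.4718.1.S1_at), and 1.04, 1.94 and 2.01 for the tub6 probe sets Zm.7750.1.S1_at, Zm.7750.2.S1_a_at and Zm.7750.2.S1_x_at. These calls were lost without 1 or more of the single arrays named in the results.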

How the results depend on the processing

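The 9 falls called over the 5 lines kept their direction and call under every setting run. Counts of called probe sets moved as follows. In RIL118 the 4 stage calls became 2 with no filter and 2 with RNA amount as a covariate, and 0 to 6 on leaving out single arrays. The 1 interaction became 0 without RIL118 (single arrays 0 to 4). The 2 line differences at emerging tassel became 1 with RNA amount (1 to 2), and the 6 at early silking became 3 without RIL118 (2 to 7). The 1 bin 6.06 call became 2 with quantile normalization (1 to 3), the RIL118 call ranged over 0 to 2, the 3 calls of RIL54 against RIL99 over 1 to 3, and the 1 of RIL71 against RIL39 became 0 with median centring and 0 with RNA amount (0 to 1). The 6 smaller falls in RIL118 became 3 with no filter and 2 with RNA amount (0 to 7), and the 0 of the bin 6.06 class ranged over 0 to 1. Pairs past the threshold within genes, 6 of 7, became 5 with values under 5 raised to it and 4 to 7 without single arrays, and those between genes 6 to 10.

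The replicate block gave 10 called stage changes in place of 9, adding tub7 (0.0493), and whether the replicate numbers mark a real block was not tested. It also ended the RIL118 difference of tub5 (0.0623) and of Zm.7750.2.S1_x_at (0.0504).

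Signs turned only for values that were not called, which were -0.47 to 0.34. The tub7 stage change became 0.0075 in RIL54 with quantile normalization and -0.025 in RIL71 with median centring, and its RIL118 difference 0.045 with median centring. For tub6 Zm.7750.1.S1_at the bin 6.06 difference became -0.0057 with median centring and -0.028 with RNA amount, and RIL54 against RIL99 became -0.015 with RNA amount. Leaving out single arrays, tub7 ranged from -0.21 to 0.096 in RIL54, -0.14 to 0.17 in RIL71 and -0.45 to 0.050 in RIL118, with -0.26 to 0.24 for its RIL118 difference and -0.034 to 0.12 for its bin 6.06 stage difference. Zm.7750.1.S1_at ranged from -0.068 to 0.069 for bin 6.06, -0.051 to 0.22 for its stage difference and -0.098 to 0.18 for RIL54 against RIL99. Zm.7750.2.S1_x_at ranged from -0.010 to 0.37 (RIL118) and -0.045 to 0.73 (RIL71 against RIL39), and Zm.7750.2.S1_at from -0.20 to 0.63 there. The brighter tub5 probe set ranged from -0.13 to 0.39 there and -0.072 to 0.19 for bin 6.06, and the dimmer one from -1.02 to 0.074 for bin 6.06 and -1.50 to 0.69 for RIL54 against RIL99. The stage change of TUBB2 against tub5 ranged from -0.18 to 0.020 and that of tub4 against tub6 from -0.061 to 0.15. The cause of these changes was not tested. Over all tested probe sets, RNA amount as a covariate cut stage calls in RIL54 from 4074 to 2055, in RIL118 from 1288 to 788 and RIL118 differences from 865 to 423; silking line differences fell from 2675 to 1698 without RIL118, and the 89 bin 6.06 stage differences became 47 with the stricter filter and 138 without RIL118.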
